A study of Mus musculus with 18 samples.

Results

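Pancreatic islets of 18 mice were sorted by the level of a single transcript, Lcn2, and the libraries in which it was high were set beside those in which it was low. The 2 sets were selected on the measured log2 level of Lcn2 in each library: 5 of 18 libraries lay above a log2 level of 4 and formed the Lcn2-high set, and 13 lay at or under it and formed the Lcn2-low set. The Lcn2-high set held the knockout libraries KO 1, KO 5, KO 7 and KO 8 and the wild-type library WT 5. The Lcn2-low set held 6 knockout and 7 wild-type libraries. Knockout mice (KO, 10 libraries) lacked NRK1, the kinase that phosphorylates nicotinamide riboside on its way to NAD, in beta cells through an Ins1Cre driver, and wild-type mice (WT, 8 libraries) were their comparison. All animals of both genotypes had been fed a high-fat diet for 12 weeks before islets were taken, so that no library stands for another diet, and the labels used here give neither age nor sex, nor the alleles of the wild-type mice. A set chosen by a measured gene is not a treatment, and the comparison of the sets tests no condition: counts, differences and standard errors between the sets are given as a description, with no p-value for any single gene, and Lcn2 itself was taken out of the results.

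Lcn2 encodes lipocalin 2, a small secreted protein that binds the iron carriers of bacteria and is made by epithelia and the liver in the acute phase response. Its gene, like many acute phase, chemokine and adhesion genes, is switched on when cytokines such as interleukin 1 or tumour necrosis factor release the transcription factor NF-kB from its inhibitors, several of which are themselves NF-kB targets and close a feedback loop. Islets exposed to such cytokines are known to turn on this programme together with interferon-stimulated genes, which act in defence against viruses and in antigen presentation.

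RNA was measured with a library kit that reads the 3' end of transcripts, and levels are log2 of CPM (read counts scaled to library size) plus a floor of 0.562 CPM, so a gene with 0 reads sits at -0.83. The deposited table lists 10509 genes. Total reads over these genes were 3011974 to 4146746 in Lcn2-high and 2831137 to 4303680 in Lcn2-low libraries, and the number of genes at 0 reads was 33 to 134 against 62 to 346. Ins2, the main insulin gene of the mouse, took 38.8% to 47.3% of reads in Lcn2-high and 33.4% to 56.1% in Lcn2-low libraries. Nmrk1, the gene of NRK1, was at 1.99 ± 0.49 (SD, n = 10) in KO and 2.01 ± 0.92 (SD, n = 8) in WT libraries, with 3 to 36 reads each. Reads from the 3' end of a transcript do not check a deletion elsewhere in the gene.

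There was a wide gap at the threshold. Lcn2 was at 4.20 in KO 1, 4.34 in KO 5, 4.96 in WT 5, 5.63 in KO 8 and 6.10 in KO 7, with 53 to 244 reads. The highest Lcn2-low library was WT 3 at 2.28, with 17 reads, followed by WT 6 at 2.14, and WT 8 had 0 reads. A threshold of 3 on the log2 scale gave the same 2 sets.

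Lcn2-high libraries were found in both genotypes, and genotype was not used to form the sets. They made up 4 of 10 KO libraries (40%) and 1 of 8 WT libraries (12.5%), a difference that did not pass Fisher's exact test (two-sided p = 0.314, odds ratio 4.30, 95% interval 0.306 to 262).

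The Lcn2-high libraries carried more transcript of a small group of genes, among them the complement gene Cfb and a few NF-kB and interferon genes, and less of Neurog3. With genotype as a covariate, 11 of 10508 genes were higher and passed limma's adjusted p threshold of 0.05 (0.105% of genes tested), and 1 was lower and passed (0.00952%). The 11 were Cfb, Gbp5, Il4i1, Birc3, Tifa, Ripk2, Cebpd, Nfkbia, Tapbpl, Parp14 and Mat1a. Every Lcn2-high library lay above every Lcn2-low library for 10 genes (0.0952%) and under every one for 2 genes (0.019%), and 6 genes met both criteria. Over all genes 52.8% were higher in the Lcn2-high set, with a median difference of 0.02, and 1.22% were higher by a log2 difference of 1 or more. Since the sets were chosen on Lcn2, these shares are printed as background and nothing is read from them.

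Cfb, which encodes complement factor B, the serine protease of the alternative complement pathway and an acute phase protein, was the gene of largest difference. Cfb (chromosome 17, 34856374 to 34862514, GRCm38) was at 5.94 in KO 1, 3.77 in KO 5, 6.58 in KO 7, 5.87 in KO 8 and 5.94 in WT 5, against -0.83, 1.56 and 2.76 as the lowest, the median and the highest Lcn2-low library. The groups did not overlap: Lcn2-high libraries had 54 to 341 reads and Lcn2-low libraries 0 to 26. The log2 difference was 4.33 ± 0.52 (SE), a fold of 20.1 on the scale that includes the floor. KO 5 was the lowest Lcn2-high library, and KO 9 the highest Lcn2-low one.

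Icam1, the adhesion molecule that white blood cells bind on activated endothelium and epithelium, followed Lcn2 in 4 of the 5 libraries. Icam1 (chromosome 9, 21015940 to 21028814, GRCm38) was at 4.96 in KO 1, 1.69 in KO 5, 5.80 in KO 7, 5.0 in KO 8 and 4.58 in WT 5, against a lowest, median and highest value of -0.29, 2.23 and 3.74 in the Lcn2-low set. KO 5 lay under the Lcn2-low median, and the other 4 lay above every Lcn2-low library. The difference of 2.46 ± 0.63 (SE) did not pass. By its markers the Lcn2-high set was therefore not uniform: Cfb was high in all 5 libraries, and Icam1 was not high in KO 5.

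**Figure D1:**
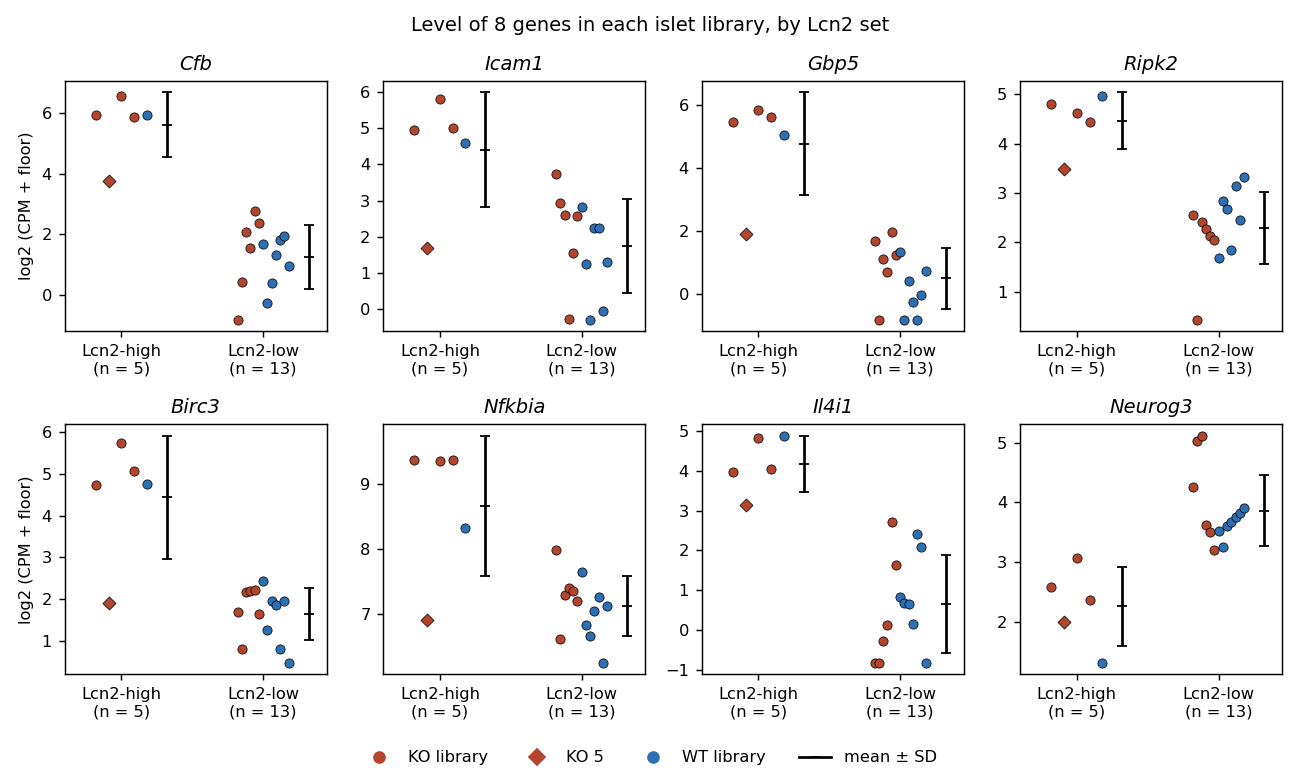
Each point is 1 library, with the log2 level (CPM plus the floor) on the vertical axis and the Lcn2 set on the horizontal axis (5 Lcn2-high libraries left, 13 Lcn2-low right), and bars give the mean ± SD of each set. KO 5, drawn as a diamond, sits among the Lcn2-low libraries for Icam1, Birc3 and Nfkbia and just under the highest of them for Gbp5, while all 5 Lcn2-high libraries are above the rest for Cfb, Ripk2 and Il4i1 and under the rest for Neurog3.

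Of 28 acute phase genes listed, 7 were measured, and all 7 had a difference above 0, against 52.8% of all genes. Their median was 1.18 against 0.02 over all genes. Of these 7, Cfb was higher and passed, where 0.105% of all genes were. Lrg1, a secreted leucine-rich glycoprotein that acts on transforming growth factor beta signalling in blood vessels, was at 3.17 in KO 1, 2.73 in KO 5, 5.88 in KO 7, 4.84 in KO 8 and 4.49 in WT 5, against 0.10, 1.67 and 3.23 as lowest, median and highest Lcn2-low values. KO 1 and KO 5 lay within the Lcn2-low range, and the difference of 2.46 ± 0.53 (SE) did not pass. Serpina3n, a serine protease inhibitor with several close copies in the mouse between which reads may be divided, was at 3.11 in KO 1, 4.55 in KO 5, 5.46 in KO 7, 4.41 in KO 8 and 4.33 in WT 5, against 1.50, 2.32 and 3.90. Here KO 5 was the second highest of the Lcn2-high libraries and KO 1 the lowest, inside the Lcn2-low range (difference 1.72 ± 0.37, SE, not passed). Cp, the copper-carrying ferroxidase ceruloplasmin, differed by 1.18 ± 0.49 (SE) on 1 to 36 reads and did not pass. Classical acute phase genes such as the serum amyloids Saa1, Saa2 and Saa3 were listed but are absent from the deposited table. Every gene in that table had a log2 above 0 in 8 or more libraries. It therefore holds no gene above 0 in the 5 Lcn2-high libraries alone.

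NF-kB factors and their feedback inhibitors were higher in the Lcn2-high set for 18 of 23 measured genes, against 52.8% of all genes. Their median difference was 0.70 against 0.02 over all genes. Of the 23, 3 were higher and passed, Birc3, Tifa and Nfkbia, where 0.105% of all genes were. Of the same genes, 0 were lower and passed. Birc3 encodes a ubiquitin ligase that passes on the signal of the tumour necrosis factor receptor and guards against cell death. Its level was 4.73 in KO 1, 1.90 in KO 5, 5.75 in KO 7, 5.07 in KO 8 and 4.77 in WT 5, against 0.46, 1.85 and 2.43 as lowest, median and highest Lcn2-low values. The other 4 libraries stood above the whole Lcn2-low range, and KO 5 stood at its middle (difference 2.76 ± 0.47, SE). Tifa, an adaptor that links the sensing of bacterial sugars and cytokine receptors to TRAF ubiquitin ligases, was at 4.09 in KO 1, 2.88 in KO 5, 4.94 in KO 7, 4.79 in KO 8 and 5.13 in WT 5, against -0.09, 1.83 and 3.16. KO 5 was again inside the Lcn2-low range (difference 2.68 ± 0.49, SE).

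Nfkbia encodes the inhibitor that holds NF-kB in the cytoplasm and is itself one of the first NF-kB targets. It had 492 to 2351 reads in Lcn2-high and 183 to 828 in Lcn2-low libraries. Its level was 9.37 in KO 1, 6.91 in KO 5, 9.36 in KO 7, 9.37 in KO 8 and 8.32 in WT 5, against 6.24, 7.20 and 7.98. KO 5 lay under the Lcn2-low median, and the other 4 lay above every Lcn2-low library (difference 1.42 ± 0.30, SE). Bcl3, a nuclear relative of that inhibitor that binds NF-kB subunits on DNA, was at 6.47 in KO 1, 5.94 in KO 5, 6.56 in KO 7, 6.78 in KO 8 and 6.70 in WT 5, against 4.41, 5.50 and 5.95. Its difference of 1.04 ± 0.22 (SE) did not pass, and KO 5 lay just under the highest Lcn2-low library.

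The promoters of the leading acute phase, NF-kB and chemokine genes were searched for the kappaB decamer, the DNA element that NF-kB binds, and for the letters TTCNNNGAA, the palindrome that STAT factors bind. RefSeq promoters of GRCm38.p6, 250 bases before to 50 bases after a start, were found for 10 of 12 genes, with 12 promoters in all. Both strands were read, and the motifs were matched separately. The kappaB decamer was in a promoter of 4 of the 10 genes, Nfkbia, Bcl3, Csf1 and Tifa, and in 8.46% of all 32851 promoters (9.55% of 27025 genes). TTCNNNGAA was in 1 of the 10, Icam1, and in 8.30% of all promoters. Of these promoters, 4 are shown because they belong to members of the feedback loop, to a growth factor and to the adhesion marker described here, and capitals mark the motif match. They lie at chr12:55492598-55492897 (minus strand) for Nfkbia, chr7:19822706-19823005 (minus strand) for Bcl3, chr3:107760420-107760719 (minus strand) for Csf1 and chr9:21015690-21015989 (plus strand) for Icam1.
Nfkbia promoter: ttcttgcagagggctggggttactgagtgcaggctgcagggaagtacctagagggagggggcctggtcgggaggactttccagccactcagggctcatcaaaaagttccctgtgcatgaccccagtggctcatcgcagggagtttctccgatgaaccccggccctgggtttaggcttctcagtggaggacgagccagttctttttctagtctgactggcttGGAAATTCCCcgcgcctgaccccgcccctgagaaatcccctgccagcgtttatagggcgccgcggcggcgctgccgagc
Bcl3 promoter: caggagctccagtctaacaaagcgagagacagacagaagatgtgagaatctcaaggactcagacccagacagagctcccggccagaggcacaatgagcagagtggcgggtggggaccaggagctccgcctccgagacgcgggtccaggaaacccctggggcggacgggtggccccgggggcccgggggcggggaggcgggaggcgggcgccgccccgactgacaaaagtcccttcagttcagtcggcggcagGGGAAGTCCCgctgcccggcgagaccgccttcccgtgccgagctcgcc
Csf1 promoter: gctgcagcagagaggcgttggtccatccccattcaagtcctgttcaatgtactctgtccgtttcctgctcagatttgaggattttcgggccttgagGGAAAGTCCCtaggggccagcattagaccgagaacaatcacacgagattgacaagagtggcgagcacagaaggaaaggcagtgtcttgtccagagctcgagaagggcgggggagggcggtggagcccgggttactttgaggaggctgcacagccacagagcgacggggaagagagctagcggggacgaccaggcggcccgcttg
Icam1 promoter: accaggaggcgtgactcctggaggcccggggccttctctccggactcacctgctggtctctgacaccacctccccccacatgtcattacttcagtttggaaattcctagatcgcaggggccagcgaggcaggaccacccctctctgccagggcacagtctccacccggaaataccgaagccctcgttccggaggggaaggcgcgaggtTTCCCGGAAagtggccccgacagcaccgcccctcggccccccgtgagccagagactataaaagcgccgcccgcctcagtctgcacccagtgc
The match starts 29 bases before the annotated start in Nfkbia, 154 before it in Csf1, 42 before it in Icam1 and 2 after it in Bcl3. A match is a description of letters, not of binding, and the absence of one says only that these letters are not in the window.

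Of 20 chemokine and adhesion genes listed, 7 were measured, and Ccl2, Cxcl1 and Cxcl10 were among the 13 that were not. All 7 measured genes had a difference above 0, against 52.8% of all genes, with a median of 0.52, and 0 passed. Icam1 led them. Csf1, the growth factor of macrophages, was at 4.82 in KO 1, 3.22 in KO 5, 4.27 in KO 7, 5.18 in KO 8 and 3.92 in WT 5, against 1.59, 2.66 and 3.99 as lowest, median and highest Lcn2-low values. KO 5 and WT 5 lay within the Lcn2-low range (difference 1.57 ± 0.38, SE, not passed). Cxcl16, a chemokine that also occurs in membrane-bound form, was between 3.81 and 4.03 in all 5 Lcn2-high libraries and between 1.29 and 4.55 in the Lcn2-low ones. The chemokine Cxcl12 had 0 to 11 reads.

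In the list of interleukin 1, tumour necrosis factor and interleukin 6 signalling, 13 of 19 measured genes were higher, against 52.8% of all genes. The median was 0.09, and 2 were higher and passed, Ripk2 and Cebpd, where 0.105% of all genes were. Ripk2, the kinase that carries the signal of the NOD receptors for bacterial cell walls, was at 4.80 in KO 1, 3.49 in KO 5, 4.62 in KO 7, 4.43 in KO 8 and 4.97 in WT 5, against 0.43, 2.41 and 3.33. The sets did not overlap, with 44 to 129 reads in Lcn2-high and 2 to 35 in Lcn2-low libraries (difference 2.37 ± 0.36, SE). Cebpd, a transcription factor of the acute phase response, was at 5.66 in KO 1, 4.55 in KO 5, 5.77 in KO 7, 5.59 in KO 8 and 5.10 in WT 5, against 2.45, 3.28 and 4.69. Only KO 5 of the Lcn2-high libraries lay under the highest Lcn2-low one (difference 1.85 ± 0.32, SE). Its relative Cebpb (0.65 ± 0.26, SE) and Stat3, the factor that interleukin 6 activates (0.36 ± 0.18, SE), did not pass. Of 19 complement genes listed 7 were measured, of which 5 were higher and 2 lower, with a median of 0.23. Among the 7 Cfb, counted in the acute phase list as well, was the gene that passed, where 0.105% of all genes were higher and passed. C3, the protein that the factor B enzyme cleaves, differed by 0.41 ± 0.47 (SE).

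Interferon response genes were higher for 27 of 31 measured genes, against 52.8% of all genes, with a median of 0.61 against 0.02. The mean log2 level of this list was 3.67 to 4.65 in Lcn2-high and 2.80 to 4.30 in Lcn2-low libraries. The Lcn2-low libraries KO 9 (4.30) and KO 10 (4.10) lay above the Lcn2-high libraries KO 5 (3.67) and WT 5 (3.81). Of the 31, 2 were higher and passed, Gbp5 and Parp14, where 0.105% of all genes were. Gbp5, an interferon-induced GTPase that takes part in inflammasome assembly, was at 5.46 in KO 1, 1.90 in KO 5, 5.86 in KO 7, 5.62 in KO 8 and 5.05 in WT 5, against -0.83, 0.70 and 1.97 as lowest, median and highest Lcn2-low values. Its difference was 4.07 ± 0.57 (SE), with 13 to 206 reads in the Lcn2-high and 0 to 14 in the Lcn2-low set, and KO 5 lay inside the Lcn2-low range. Gbp5 and Gbp7 belong to a family of similar genes that lie together on chromosome 3, between which reads may be divided. Parp14, which attaches ADP-ribose to proteins, ranged from 5.45 to 6.69 in the Lcn2-high and from 4.68 to 5.78 in the Lcn2-low set (difference 1.00 ± 0.20, SE), with KO 5 as the lowest of the Lcn2-high libraries. Gbp7 (1.22 ± 0.27, SE) and the antiviral enzyme Rsad2 (1.25 ± 0.31, SE) did not pass.

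Genes of antigen presentation by MHC class I were higher for 9 of 10 measured genes, against 52.8% of all genes. Their median was 0.38, and 0 passed. The mean log2 level of this list was 5.81 to 6.18 in Lcn2-high and 4.96 to 6.01 in Lcn2-low libraries. The Lcn2-low libraries KO 9 (5.99) and KO 10 (6.01) lay above the Lcn2-high libraries KO 1 (5.98), KO 5 (5.84) and WT 5 (5.81). The immunoproteasome subunits Psmb10 and Psmb8 differed by 0.82 ± 0.19 and 0.84 ± 0.26 (SE), the activator subunit Psme1 by 0.43 ± 0.19 (SE) and the peptide transporter Tap1 by 0.73 ± 0.39 (SE). Outside this list Tapbpl, which edits the peptides that MHC class I carries, passed. It was at 6.17 in KO 1, 6.22 in KO 5, 6.74 in KO 7, 6.66 in KO 8 and 7.18 in WT 5, against 5.24, 5.60 and 6.07 as lowest, median and highest Lcn2-low values. The sets did not overlap, and the difference was 1.04 ± 0.17 (SE).

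The remaining genes that passed have roles in amino acid metabolism. Il4i1, a secreted oxidase of aromatic amino acids that dampens lymphocytes, was at 3.97 in KO 1, 3.14 in KO 5, 4.82 in KO 7, 4.04 in KO 8 and 4.88 in WT 5, against -0.83, 0.65 and 2.71. It did not overlap between the sets, with 34 to 121 reads against 0 to 25 (difference 3.69 ± 0.57, SE). Mat1a, the liver-type enzyme that makes S-adenosylmethionine, was at 6.31 in KO 1, 6.37 in KO 5, 6.70 in KO 7, 7.12 in KO 8 and 7.17 in WT 5, against 5.39, 5.97 and 6.10 (difference 0.91 ± 0.17, SE). It too separated the sets completely, with KO 1 as the lowest of the Lcn2-high libraries and WT 2 as the highest of the Lcn2-low ones.

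**Figure D2:**
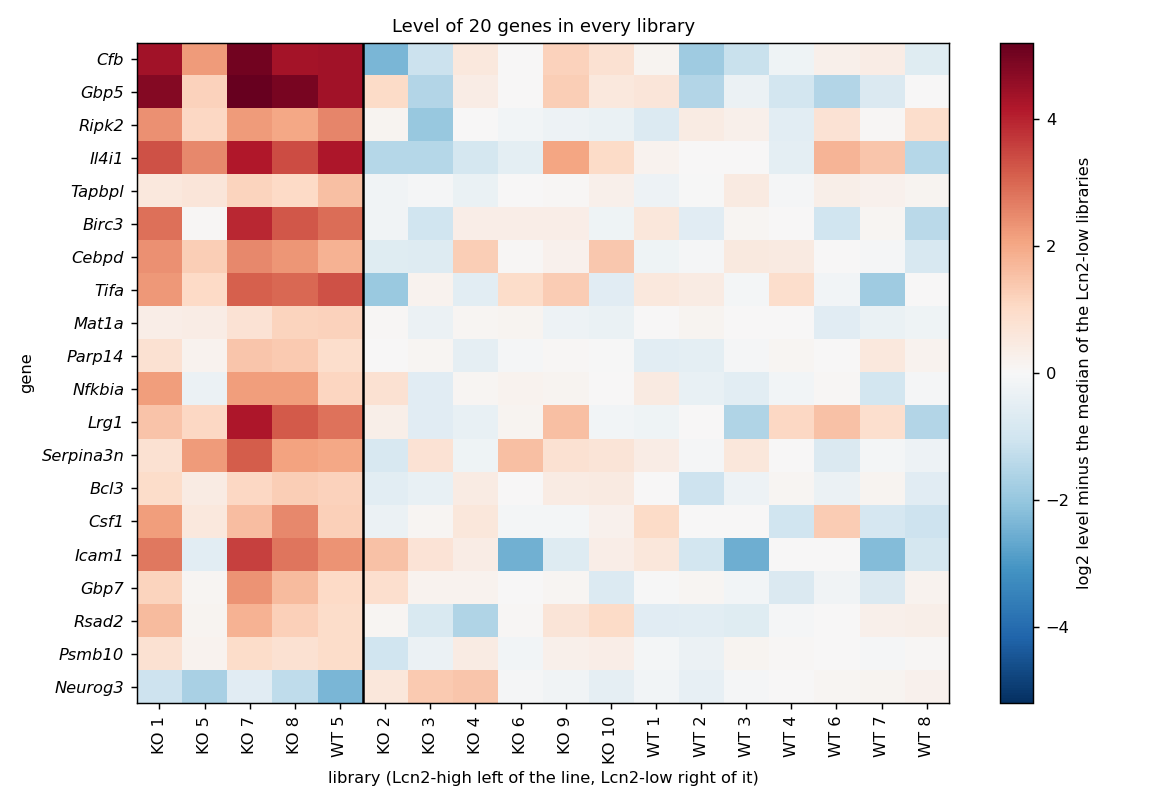
Rows are the 12 genes that passed and 8 leading list members that did not, columns are the 18 libraries with the 5 Lcn2-high ones left of the line, and colour is the log2 level minus the Lcn2-low median. KO 1, KO 7, KO 8 and WT 5 are high along the column, KO 5 is near the Lcn2-low median for Birc3 and below it for Nfkbia and Icam1, and Neurog3 in the last row has the opposite sign.

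Neurog3 was the gene that was lower and passed. It encodes the transcription factor that commits pancreatic progenitors to the endocrine lineage and is scarce in adult islets. Neurog3 was at 2.57 in KO 1, 1.99 in KO 5, 3.07 in KO 7, 2.36 in KO 8 and 1.30 in WT 5, against 3.21, 3.67 and 5.12 as lowest, median and highest Lcn2-low values. The sets did not overlap, and KO 5 was low like the other 4 (difference -1.82 ± 0.31, SE, on 8 to 28 reads against 33 to 130). Neurog3 did not pass without WT 5 (-1.62), by voom on recovered reads, or with the run of animal numbers as a term over 8 libraries (-1.92). Nor did it pass at an Lcn2 threshold of 5, in KO libraries alone, or without the run of KO 6, KO 7, KO 8 and WT 5. Over all alternatives its difference was -2.34 to -0.95. The other measured dedifferentiation genes did not pass: of the 8, 3 were higher and 5 lower, with a median of -0.08. Aldh1a3, an enzyme of retinoic acid synthesis that marks failing beta cells, differed by -1.44 ± 0.61 (SE), and the progenitor factor Sox9 by 0.88 ± 0.51 (SE). After Neurog3 the genes of largest moderated t downwards included Srcin1, Rab40b, Otoa, Fcgr3, Tbc1d30, Crb1, Calcoco1 and H2-Ab1, with differences from -1.71 to -0.89, none of which passed. Srcin1 and Rab40b had at most 23 reads in any library.

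No gene of the beta-cell identity list passed. Among 27 measured identity genes, 6 had a difference above 0 and 21 had one under it, and the median was -0.08 against 0.02 over all genes. Foxa2, a transcription factor of endocrine cells, differed by -0.38 ± 0.17 (SE) and Nkx2-2, another, by -0.43 ± 0.29 (SE). The islet glucose-6-phosphatase G6pc2 was at 0.29 ± 0.14 (SE), and Ins1 and Ins2, near-identical insulin genes, were at -0.42 ± 0.39 and -0.08 ± 0.76 (SE). The level of Ins1 was 14.43 in KO 7 and 14.35 in KO 8, under every other library. It was 15.70 to 15.90 in KO 1, KO 5 and WT 5 and 15.34 to 16.71 in Lcn2-low libraries. Between KO and WT, at equal Lcn2 set, Ins1 differed by -0.56 ± 0.35 (SE). The part of the Ins1Cre driver in the level of Ins1 was not tested. Unfolded protein response genes were higher for 24 of 26, against 52.8% of all genes, with a median of 0.30 and 0 passed. Among them were the disulfide isomerase Pdia4 (0.61 ± 0.17, SE) and the chaperone Calr (0.55 ± 0.18, SE). Genes of NAD metabolism, the pathway of the deleted kinase, had a median of 0.08 over 13 genes, of which 10 were higher and 0 passed.

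In the stress and injury lists 0 genes passed, and a few members led each list. Over all genes 52.8% were higher. Of 17 oxidative defence genes 14 were higher, with a median of 0.09 and 0 passed, and the metallothioneins Mt2 and Mt1, small metal-binding proteins, differed by 1.24 ± 0.47 and 1.03 ± 0.43 (SE). Txnip, which binds thioredoxin and follows glucose, differed by -1.17 ± 0.47 (SE). Of 17 immediate early genes 10 were higher, with a median of 0.16 and 0 passed, and Ier3 (1.08 ± 0.30, SE) led them. Of 18 epithelial injury and repair genes 8 were higher, with a median of -0.07 and 0 passed, among them the matrix protein Spp1 (0.88 ± 0.35, SE) and the growth factor Areg (1.06 ± 0.46, SE).

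**Figure D3:**
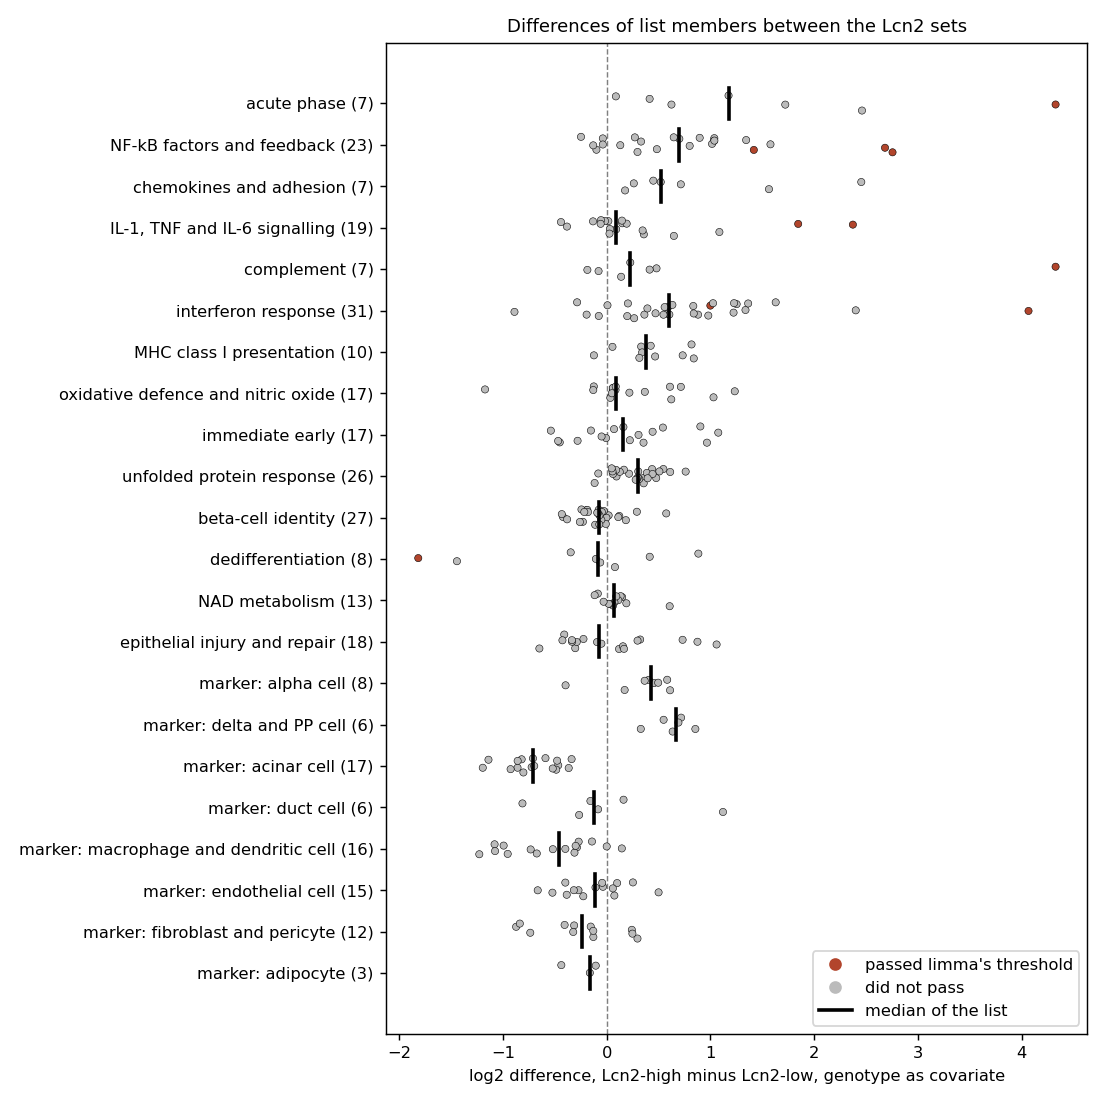
Each point is a measured member of a list, placed by its log2 difference, Lcn2-high minus Lcn2-low with genotype as covariate, and the black bar is the median of the list, whose number of members is in brackets. The acute phase, NF-kB and interferon lists have the highest medians of the response lists, at 1.18, 0.70 and 0.61, the acinar list has the lowest at -0.71, and the points that passed are few in every list.

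Markers of other cells in the preparation differed in both directions, and 0 passed. Over all genes 52.8% were higher in the Lcn2-high set. In whole islets, fewer cells of a type and less RNA per cell cannot be told apart. Of 16 macrophage and dendritic cell markers 2 were higher and 14 lower, with a median of -0.46, and 0 passed. The mean log2 level of this list was 2.21 to 3.84 in Lcn2-high and 2.67 to 4.48 in Lcn2-low libraries, on 331 to 1157 against 507 to 2367 reads. The class II genes H2-Ab1 and Cd74, which present antigen to helper T cells, differed by -1.23 ± 0.36 and -0.73 ± 0.26 (SE), and Aif1 by -1.08 ± 0.35 (SE). The highest value of the list in the Lcn2-high set was that of KO 1. For neutrophils and lymphocytes 1 marker each was measured, Il1r2 with 3 to 10 reads in Lcn2-high and 1 to 31 in Lcn2-low libraries and Il7r with 0 to 27 against 3 to 35. With the macrophage level as a covariate 12 genes were higher and passed, and 1 was lower.

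All 17 measured markers of acinar cells, the enzyme-making cells around islets, were lower, where 52.8% of all genes were higher. Their median was -0.71, and 0 passed. The acinar median was -1.41 without KO 5, -0.17 without KO 7 and 1.23 without KO 6, KO 7, KO 8 and WT 5. The spread between libraries was wide: the list's mean log2 level was 1.29 to 6.52 in Lcn2-high and 1.51 to 6.37 in Lcn2-low libraries, with the highest value of all in KO 5 and the lowest in KO 7. With the acinar level as a covariate 11 genes were higher and passed, and 1 was lower. Alpha cell markers were higher for 7 of 8 genes, with a median of 0.43, and delta and PP cell markers for 6 of 6, with a median of 0.66, and 0 passed in either list. The glucagon gene Gcg differed by 0.61 ± 0.35 (SE) and the somatostatin gene Sst by 0.72 ± 0.31 (SE). Endothelial, fibroblast, duct and adipocyte lists had medians of -0.11, -0.23, -0.12 and -0.16, and 0 of their members passed. In that order, 5 of 15, 3 of 12, 2 of 6 and 0 of 3 members were higher. In the endothelial list differences ran from -0.66 to 0.50, and Kdr, the main receptor of vascular endothelial growth factor, differed by -0.38 ± 0.14 (SE).

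**Figure D4:**
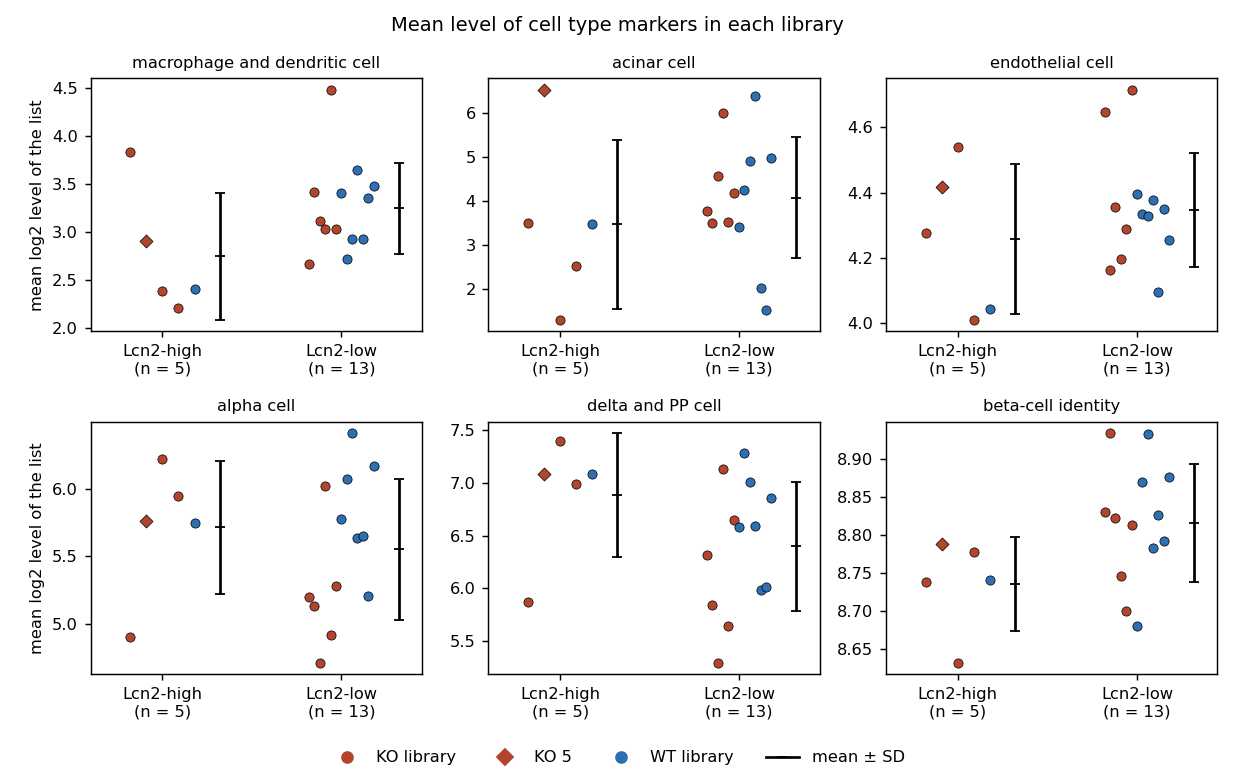
Each point is 1 library, with the mean log2 level of a marker list on the vertical axis and the Lcn2 set on the horizontal axis (5 Lcn2-high libraries left, 13 Lcn2-low right), and bars are the mean ± SD. The sets overlap in all 6 panels, and KO 5, drawn as a diamond, has the highest acinar level at 6.52.

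The 5 Lcn2-high libraries differed among themselves. Over the 11 genes that were higher and passed, KO 1, KO 7, KO 8 and WT 5 lay above every Lcn2-low library for 11 of 11, by a median of 2.31 to 2.56 above the Lcn2-low median. KO 5 lay above every Lcn2-low library for 5 of 11, by a median of 1.05, and was the lowest of the 5 for 9 of them. KO 7 and WT 5 were each the highest for 5 genes. The 11 genes were chosen with these same libraries in the Lcn2-high set, so the counts follow in part from the choice. No share over all genes was taken for a single library, and nothing is read from the counts beyond a description. Without KO 5, 30 genes were higher and passed in place of 11, and without WT 5, the 1 wild-type library of the set, 5 were higher and 0 lower. Without KO 6 the number higher was 18, and without KO 7 or KO 8 it was 7. Cfb, Gbp5, Il4i1 and Ripk2 passed in 18 of 18 fits that left out 1 library, Nfkbia in 5 and Parp14 in 9.

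Animal numbers in the sample names run in short consecutive stretches, and KO 7, KO 8 and WT 5 belong to one such run together with the Lcn2-low library KO 6. The labels do not say what a run stands for. Within it the 3 Lcn2-high libraries were above KO 6 for 11 of 11 of the genes, by 0.90 to 4.81, where 28.9% of all genes had the 3 above KO 6. In the run of KO 5 with the Lcn2-low libraries KO 4, WT 3 and WT 4, KO 5 was above all 3 for 9 of 11, where 24.6% of all genes were, and Birc3 and Nfkbia were at -0.09 each relative to the mean of the 3. The 11 genes were chosen in the comparison of all 18 libraries, which includes both runs. The counts within the runs therefore follow in part from that choice and carry no test. Without the run of KO 6, KO 7, KO 8 and WT 5, which leaves KO 1 and KO 5 in the Lcn2-high set, 0 genes passed in either direction in limma (290 at an unadjusted p under 0.05), and Cfb, Gbp5, Icam1 and Nfkbia differed by 3.50, 2.65, 0.65 and 0.85. The medians of the acute phase, NF-kB and acinar lists were then 0.57, 0.25 and 1.23, the last with the sign turned.

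The programme was next read in WT libraries with genes chosen in KO libraries, which share no library with them but do share runs of animal numbers. Among KO libraries alone, 4 Lcn2-high and 6 Lcn2-low, the 20 genes of largest moderated t upwards were taken, Lcn2 left out. In WT 5 all 20 of them were above the mean of the 7 other WT libraries, where 52.9% of all genes were. For 18 of the 20, WT 5 was above each of the other 7 WT libraries, where 12.9% of all genes were, and the exceptions were Il11 and Csf1. The median difference of the 20 in WT was 1.47. Gbp5 was 4.98 higher in WT 5 than in the other WT libraries and Cfb 4.82, against differences of 3.73 and 4.15 among KO libraries. These counts describe 1 WT library, itself chosen on its Lcn2 level, and carry no test. They are also not independent of the run of animal numbers. The run of WT 5 holds no other WT library, but it holds some of the Lcn2-high KO libraries used for the choice, and the Lcn2-low library KO 6. Whether the run contributes to the counts in WT 5, for genes chosen in either direction, was not tested.

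For genes chosen downwards in KO libraries the counts in WT 5 were smaller. Of 20 such genes 14 were below the mean of the other WT libraries in WT 5 (47.1% of all genes were), and 4 were below each of them, among them Neurog3, Srcin1 and Crb1, where 11.5% of all genes were. Their median difference in WT was -0.29. Neurog3 was 2.34 lower in WT 5 than in the other WT libraries and 1.62 lower in Lcn2-high than in Lcn2-low KO libraries.

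**Figure D5:**
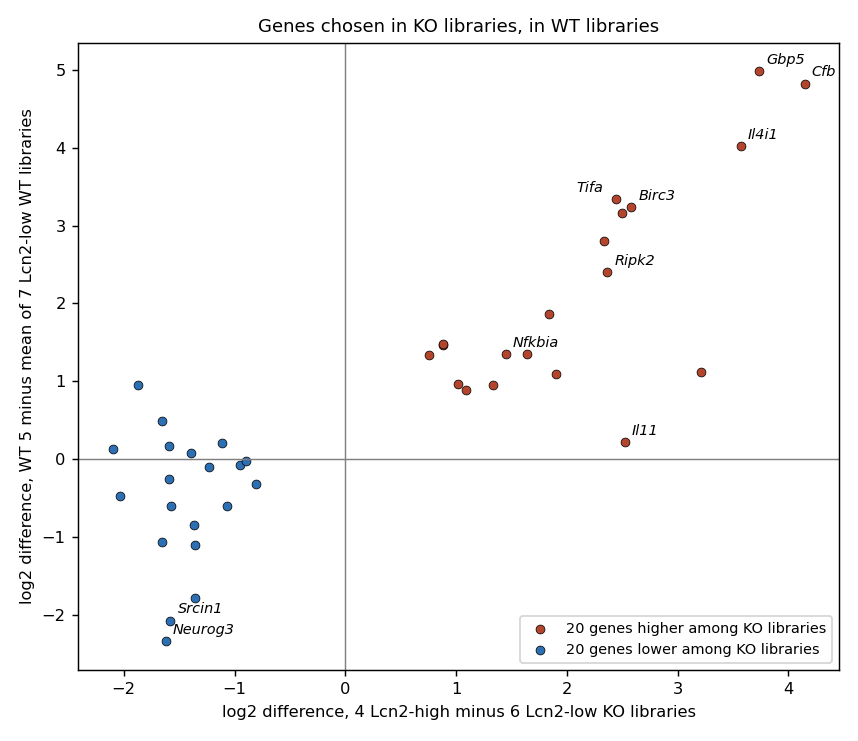
Each point is a gene chosen by its moderated t among KO libraries, 20 in each direction, with its log2 difference between 4 Lcn2-high and 6 Lcn2-low KO libraries on the horizontal axis and that between WT 5 and the mean of the 7 other WT libraries on the vertical axis. All 20 genes chosen upwards lie above 0 on the vertical axis, and 14 of the 20 chosen downwards lie under it.

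Genotype was also tested, since the choice of sets did not use it. With the Lcn2 set as a term, 0 of 10508 genes (0%) passed between KO and WT in limma (602 at an unadjusted p under 0.05), and 0 passed by voom on recovered reads (601) or without the Lcn2 term (566). Cfb differed by 0.14 ± 0.47 (SE) between KO and WT at equal Lcn2 set. Whether the difference between the Lcn2 sets was itself different in KO and in WT was tested with a product term: 0 genes passed (204 at an unadjusted p under 0.05, smallest adjusted p in limma 0.323). The WT arm of that test holds 1 Lcn2-high library, WT 5, so that a count of 0 does not show that the differences were alike.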

How the data were processed

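The deposited table, made by the authors, holds log2 values per gene and library from pancreatic islets. STAR 2.5.2 and HTSeq 0.6.1 stand in the submitters' processing notes beside edgeR and the build GRCm38, without the step each served. The values were found to be log2 of CPM plus a floor of 0.562: whole reads came out for 100% of values within 0.05 reads, with 1 read worth 0.238 to 0.411 CPM. Samples were grouped by the genotype label, and libraries were numbered within a group. All 153 pairs of libraries differed beyond sampling noise (chi-square per degree of freedom at least 6.22). Labels name no pairing or batch. SDs measure the spread between these libraries, and SEs are limma's moderated errors, drawn towards those of genes of similar level. For Ins2 the SE was 0.76, beside SDs of 0.22 in Lcn2-high and 0.38 in Lcn2-low libraries. Reads copied by PCR are not separate molecules, so read numbers do not count independent molecules.

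Lcn2 was removed, and limma 3.58.1 in R 4.3.3 fitted genotype and Lcn2 set to 18 libraries (empirical Bayes with trend, Benjamini-Hochberg adjustment). Requiring a log2 above 0 in 8 or more libraries removed 0 genes. Described in full were Cfb and Icam1, the 10 genes of largest moderated t in each direction, the 5 largest passing differences and up to 4 members of each of 24 lists. Among these, 1 gene that this rule names is not reported here. The counts of Il11, Csf1 and of genes chosen in KO libraries were added after values were seen, as was leaving out a run of animal numbers. The members and lists were chosen with earlier results of these data known. Coordinates and promoters are from RefSeq (GRCm38.p6), where 10508 of the identifiers were found. A count test was not used, because the table holds log2 values; limma voom on recovered reads was run instead.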

Additional observations from a re-analysis of the deposited data

Results flagged for a closer look

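Among the 5 Lcn2-high libraries, 102 named genes were examined for a single library far from the others (a gap to its neighbour above 0.71 of the range), and 10 values were found. For independent values from a normal distribution, chance gives such a value in about 1 of 20 groups. The 102 genes share the same 5 libraries and many were chosen on them, so the 10 values cannot be set against that rate. KO 5 gave 5 of the 10: it was lowest for Cfb at 3.77 (next library 5.87), for Gbp5 at 1.90 (next 5.05), for Birc3 at 1.90 (next 4.73) and for the immunoproteasome subunit Psmb10 at 6.17 (next 6.76), and highest for the acinar enzyme Cela2a at 7.38 (next 3.66). KO 1 was lowest for the glucagon gene Gcg at 10.98 (next 12.6) and for Spp1 at 5.84 (next 6.70). KO 8 was lowest for Tbc1d30 at 2.27 (next 3.46), and WT 5 was lowest for the fatty acid receptor Ffar1 at 7.47 (next 7.95). KO 7 was highest for Kdr at 6.41 (next 6.14). All are log2 levels, and the part of acinar RNA in the low values of KO 5 was not tested.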

How the results depend on the processing

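The main comparison gave 11 genes higher and 1 lower. Counts were 11 and 1 with robust empirical Bayes, with the acinar covariate or at an Lcn2 threshold of 3, 12 and 1 with the macrophage covariate, and 15 and 1 with median centring. They moved to 21 and 1 with no genotype term, 17 and 1 with 1 added on the linear scale, 10 and 2 with quantile normalization, 8 and 2 with no trend, 20 and 0 with voom, and 25 and 2 at an adjusted p under 0.10. Requiring a log2 above 3 in 8 or more libraries, which keeps 7760 genes, gave 3 and 1. Fewer libraries gave 1 and 0 in KO alone, 0 and 0 in WT alone (569 at an unadjusted p under 0.05), 4 and 2 (Neurog3 not among the 2) with the run of animal numbers as a term over 8 libraries, 33 and 22 without WT 7, KO 2 and KO 3, whose numbers of genes at 0 reads were highest, and 0 and 0 without the run of KO 6, KO 7, KO 8 and WT 5 (290 unadjusted), an alternative chosen after seeing the data. At an Lcn2 threshold of 5, which leaves KO 7 and KO 8 as the high set, 0 and 0 passed in limma (899 unadjusted). Leaving out each library gave 5 to 30 genes higher and 0 to 1 lower: 30 without KO 5, 18 without KO 6, 7 without KO 7 or KO 8 and 5 without WT 5. Cfb, Gbp5, Il4i1 and Ripk2 passed in 18 of 18 such fits, Nfkbia in 5 and Parp14 in 9. For all 12 genes the sign was the same under each alternative run. The cause of these moves was not tested. The genotype share gave an exact p of 0.477 at the threshold of 5 and 0.103 to 0.576 leaving out each library, the lowest without WT 5, which leaves 0 Lcn2-high WT libraries. Genotype gave 0 genes in each alternative, and the product term 1 gene with no trend and 0 leaving out each library other than WT 5, without which it could not be fitted. No filter gave the same genes as the main filter, so no separate value. No paired analysis was possible because the labels give no replicate numbers, and the run of animal numbers in the sample names was the only block fitted. Genes with few reads, such as Cxcl12 with 0 to 11, limit what these libraries can show.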

Other observations

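Among the Lcn2-low libraries, KO 9 had the highest level of Cfb (2.76), Gbp5 (1.97), Il4i1 (2.71), Tifa (3.16) and Lrg1 (3.23). Over the 11 genes that were higher and passed, its median was 0.22 above the Lcn2-low median, the highest of the 13 libraries, and KO 3 had the lowest at -0.69. KO 3 had 227 genes at 0 reads, against 81 in KO 9. KO 2 had the highest Lcn2-low level of Icam1 (3.74) and Nfkbia (7.98), and its Cfb was at 0 reads.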
